A study of Mus musculus with 6 samples.

Results

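The 10 interferon-induced effector genes described here were measured in 2 mouse breast cancer lines: Ifi44, Ifi27, Ifi35, Ifi203, Ifi204, Bst2, Rtp4, Xaf1, Samd9l and Ly6e. They were chosen by name, with earlier LM2 and Parental values of these libraries known, to set the genes that were higher in LM2 beside Samd9l, which was lower. They are 10 of 35905 genes with a matched transcript, and all 10 passed the low-count filter that left 13247 genes for testing. Because the choice rests on this contrast, the differences of these 10 genes are descriptions, given with no p-value, and calls among them are only counted beside the share of all tested genes.

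The lines were EO771-tdT-LM2 and EO771-tdT-Parental, called LM2 and Parental here, with 3 libraries each. The Parental titles also carry the tag Ac6, which the labels do not explain. EO771 is a mouse mammary tumour line. Both lines are labelled wild type, with no treatment named, and both were cultured for 48 h in RPMI medium with 10% serum to about 75% confluence. The labels do not give how LM2 was derived, whether it is a clone, or whether replicates were separate cultures, so a p-value here covers no more than library-to-library spread, which may be technical.

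Cells answer interferons through surface receptors whose JAK kinases activate transcription factors. Complexes that hold IRF9 then bind interferon-stimulated response elements, and IRF factors bind related shorter sites, in the promoters of many antiviral genes. The genes described here act at different points after that step. Ly6e and Bst2 (tetherin, which holds budding enveloped virus at the cell surface) are membrane proteins, and Ly6e is known to limit coronavirus entry. Ifi44 is a cytoplasmic protein induced by interferon, Ifi35 a leucine zipper protein that binds Nmi, and Rtp4 a chaperone of receptor transport. Xaf1 binds the apoptosis inhibitor Xiap, and Ifi27 encodes a small hydrophobic membrane protein. Ifi203 and Ifi204 belong to the PYHIN family, whose mouse member Ifi204 senses DNA. Samd9l restrains growth and viral replication.

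LM2 libraries held 34711938, 33922699 and 38182191 estimated counts and Parental libraries 45849019, 36597892 and 40476805. Mitochondrial genes took 1.24% to 1.43% of the counts in LM2 and 1.06% to 1.24% in Parental. As a check of the labelled cell type, the epithelial keratin Krt8 had 568 ± 10.4 CPM in LM2 and 420 ± 6.61 CPM in Parental (SD, n = 3 each; CPM, counts scaled to a common library size), while Krt18, Cdh1 and Krt5 did not pass the low-count filter. The lines differed more in other markers of this list: the adhesion protein gene Epcam had 14.97 ± 0.36 CPM in LM2 and 0.154 ± 0.0503 CPM in Parental (94.3-fold, adjusted p = 4.94e-19), and the basal keratin Krt14 had 8.47 ± 0.571 CPM in LM2 and 1.11 ± 0.18 CPM in Parental (7.67-fold, adjusted p = 8.03e-14). Summed over 10 leukocyte markers, the level was 3.47 to 4.09 CPM in LM2 and 4.46 to 4.66 CPM in Parental, with Adgre1 and Nkg7 at 0 in every library. The 2 of these that were tested went opposite ways, Cd68 at 2.68 CPM in LM2 and 1.75 CPM in Parental (adjusted p = 0.00539) and Lyz2 at 0.831 CPM in LM2 and 2.51 CPM in Parental (adjusted p = 9.39e-07). The 4 endothelial markers summed to 4.12 to 4.60 CPM in LM2 and 3.40 to 4.19 CPM in Parental, mostly Pecam1, which did not pass, while Cdh5 rose, at 0.668 CPM in LM2 and 0.18 CPM in Parental. The fibroblast markers summed to 170 to 192 CPM in LM2 and 126 to 129 CPM in Parental, of which Pdgfra made up nearly all, while Col1a2 fell, at 0.232 CPM in LM2 and 0.926 CPM in Parental. The part of these marker differences in the results below was not tested. In bulk RNA, more cells with a transcript and more transcript per cell cannot be told apart.

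These promoters are shown because they belong to genes that stood far apart in the comparison: Ifi44 and Xaf1 with far higher levels in LM2, Bst2 with an abundant transcript, and Samd9l with a lower level in LM2. Each is 300 bases of the GRCm38.p6 assembly from RefSeq, 250 before the annotated start and 50 after it, read 5′ to 3′ in the direction of the gene. Ifi44 lies at chr3:151749861-151750160 (minus strand), Bst2 at chr8:71537423-71537722 (minus), Xaf1 at chr11:72301379-72301678 (plus) and Samd9l at chr6:3399522-3399821 (minus). Capitals mark matches to an interferon-stimulated response element core, which is GAAA, any 2 bases and GAAA again, or to an IRF core, AANNGAAA, searched on both strands, so that every match to the first also holds a match to the second.
Ifi44: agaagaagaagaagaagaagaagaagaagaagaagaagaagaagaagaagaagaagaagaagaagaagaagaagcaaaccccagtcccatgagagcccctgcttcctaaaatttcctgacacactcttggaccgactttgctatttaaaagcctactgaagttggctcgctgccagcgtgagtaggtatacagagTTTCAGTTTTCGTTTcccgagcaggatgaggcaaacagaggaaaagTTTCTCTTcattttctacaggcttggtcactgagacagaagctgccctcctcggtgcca
Bst2: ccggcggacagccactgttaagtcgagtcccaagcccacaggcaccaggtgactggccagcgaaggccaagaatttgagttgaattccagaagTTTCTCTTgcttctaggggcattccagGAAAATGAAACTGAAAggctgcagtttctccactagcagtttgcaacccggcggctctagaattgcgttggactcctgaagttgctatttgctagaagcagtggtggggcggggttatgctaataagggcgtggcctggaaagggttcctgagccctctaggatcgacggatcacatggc
Xaf1: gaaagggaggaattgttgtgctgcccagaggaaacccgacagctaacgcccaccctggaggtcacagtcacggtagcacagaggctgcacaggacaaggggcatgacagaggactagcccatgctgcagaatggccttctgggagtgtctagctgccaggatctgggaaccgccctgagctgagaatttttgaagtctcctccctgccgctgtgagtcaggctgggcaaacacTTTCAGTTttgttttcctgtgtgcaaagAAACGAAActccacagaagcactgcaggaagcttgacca
Samd9l: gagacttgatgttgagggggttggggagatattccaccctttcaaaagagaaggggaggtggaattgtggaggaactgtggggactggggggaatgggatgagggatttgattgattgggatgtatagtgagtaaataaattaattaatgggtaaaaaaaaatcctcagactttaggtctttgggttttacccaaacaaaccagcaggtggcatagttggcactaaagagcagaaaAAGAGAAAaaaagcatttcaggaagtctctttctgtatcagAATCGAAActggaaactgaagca
These matches are to letters only, and show neither binding nor use. Bst2 held 2 overlapping response element cores, starting 130 and 124 bases before the gene's start, and a further IRF core. The Ifi44 window held 3 IRF cores, all on the opposite strand, and the Xaf1 and Samd9l windows 2 each. The table held 7 windows for 6 of the 10 genes, with 2 for Ifi203. An IRF core was found in 6 of the 7 windows, against 23.9% of 32851 mouse promoter windows, and the other Ifi203 window held none of the motifs searched. The response element core was found in 2 windows, of Bst2 and Ifi203, against 3.44% of windows. A GAS core, TTCNNNGAA, was found in Ifi35 and Bst2, against 8.30% of windows. The genes with an IRF core included Samd9l, lower in LM2, and Ifi44, higher in LM2.

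Ly6e had the highest TPM of the 10 genes in each line. Its level was 454, 462 and 493 CPM in LM2, against 335, 334 and 326 CPM in Parental. The lines did not overlap, and the log2 fold change was 0.50 ± 0.03 (LM2 over Parental, standard error), or 1.42-fold. Its main transcript, Ly6e-215, held 74.0% ± 0.52 of the gene's counts in LM2 and 74.1% ± 0.55 in Parental (SD, n = 3 each). Bst2 had 152, 158 and 180 CPM in LM2, against 75.0, 75.8 and 73.5 CPM in Parental. All 3 LM2 libraries were above all 3 Parental libraries, with a log2 fold change of 1.13 ± 0.07 (2.19-fold).

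Ifi44 had the largest difference among the 10. Its level was 14.6, 15.4 and 21.4 CPM in LM2, against 0.637, 0.606 and 0.471 CPM in Parental, from 505, 520 and 815 counts in LM2 and 29, 22 and 19 counts in Parental. The log2 fold change was 4.90 ± 0.21 (29.8-fold), rank 77 of 13247 genes from the top. Rtp4 came next, with 213, 243 and 404 counts in LM2 and 13, 25 and 13 counts in Parental, and a log2 fold change of 4.24 ± 0.35 (18.9-fold). In both genes LM2 replicate 3 was well above the other two LM2 libraries. Ifi35 was tighter, at 43.0, 45.1 and 45.9 CPM in LM2 and 20.1, 21.9 and 21.7 CPM in Parental. Its log2 fold change was 1.07 ± 0.05 (2.11-fold). Of its 31-base words, 12.8% also occur in Gm11626, a gene with no transcript among those measured. Reads from these shared words of either gene could be counted to Ifi35. For Rtp4 the share of such words was 12.5%, with Gm45338, which had no measured transcript either.

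**Figure D1:**
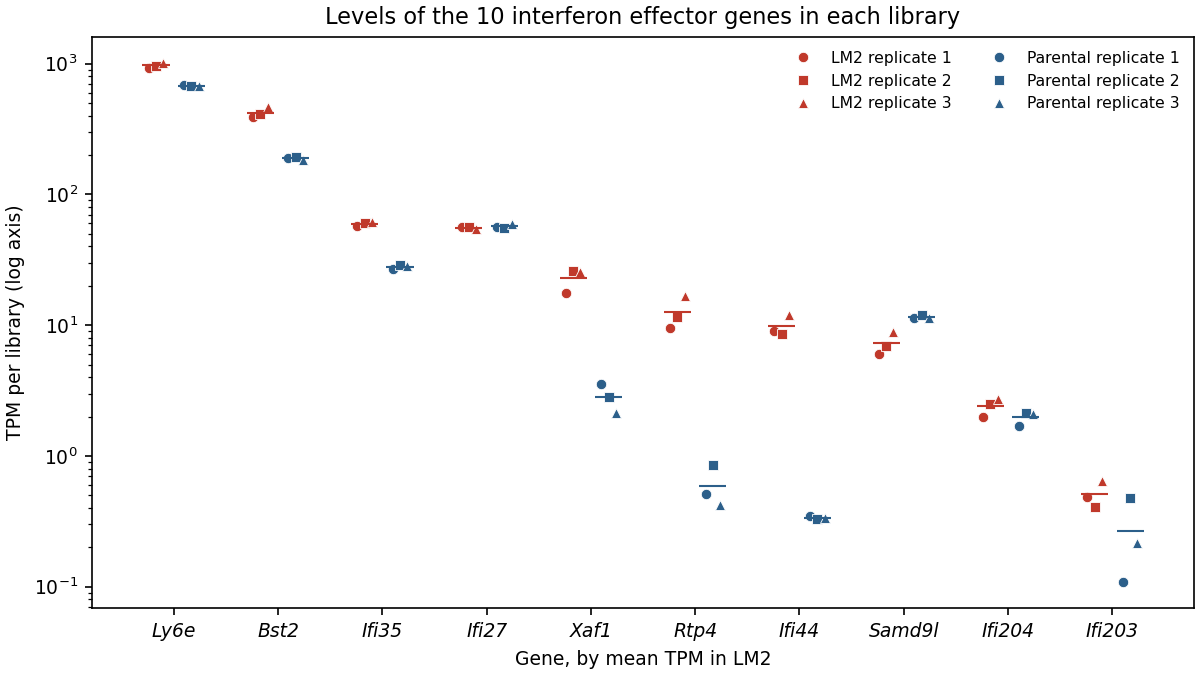
Level of each of the 10 genes in TPM on a log axis, by mean TPM in LM2, with a point for each of 3 LM2 and 3 Parental libraries and a bar for the mean of the line. Ifi44 lay at 8.54 to 12.0 TPM in LM2 and 0.328 to 0.349 TPM in Parental, and Samd9l averaged 7.26 ± 1.44 TPM in LM2 and 11.6 ± 0.407 TPM in Parental (SD, n = 3 each).

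Xaf1 had 8.51, 11.2 and 11.3 CPM in LM2, against 2.86, 2.40 and 2.28 CPM in Parental. Summed counts gave a log2 fold change of 2.03 ± 0.13 (4.10-fold), but it was 2.99 when transcript lengths were allowed for and 3.02 as a ratio of TPM (levels per length, scaled to a common library sum). The transcripts that carried the reads differed between the lines. Xaf1-204, of 2597 bases, held 44.9% ± 4.23 of the gene's counts in LM2 and 76.7% ± 5.14 in Parental. Xaf1-202, of 651 bases, held 39.8% ± 8.18 in LM2 and 16.1% ± 5.10 in Parental. In TPM, Xaf1-202 lay at 9.49, 18.9 and 14.2 in LM2 and 2.00, 1.31 and 0.824 in Parental, while Xaf1-204 lay at 2.54, 2.82 and 3.28 in LM2 and 1.24, 1.17 and 1.12 in Parental. Both transcripts were above their Parental values in every LM2 library. Between these, Xaf1-202 differed more, as kallisto assigned the reads. The shortest transcript, Xaf1-201, of 415 bases and annotated for nonsense-mediated decay, differed too. It lay at 4.73, 3.65 and 7.07 TPM in LM2 and 0, 0.306 and 0.0705 TPM in Parental. Its estimated counts were low, at 23.8, 17.3 and 38.6 in LM2 and 0, 1.62 and 0.42 in Parental. Ifi27 was close to level: 23.0, 24.0 and 22.4 CPM in LM2 and 24.0, 25.4 and 25.8 CPM in Parental. Its log2 fold change was -0.12 ± 0.05, and in TPM the libraries of the lines overlapped.

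**Figure D2:**
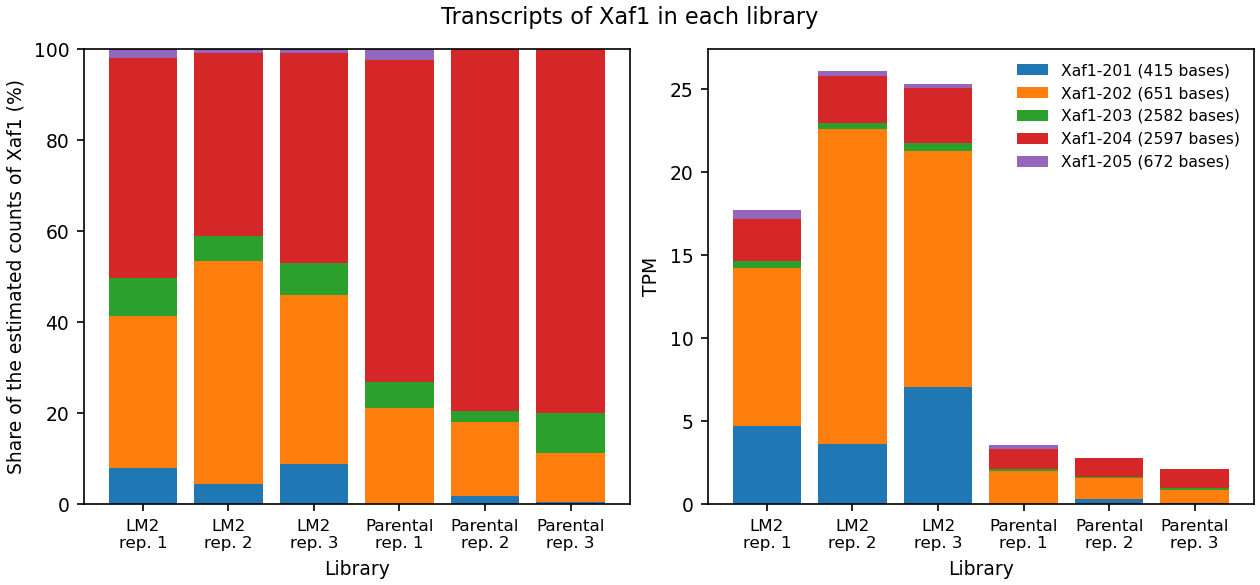
Stacked bars for the Xaf1 transcripts in each of the 3 LM2 and 3 Parental libraries, as a percent of the gene's estimated counts on the left and in TPM on the right. Xaf1-202 lay at 9.49 to 18.9 TPM in LM2 and 0.824 to 2.00 TPM in Parental, while Xaf1-204 took a share of 44.9% ± 4.23 in LM2 and 76.7% ± 5.14 in Parental (SD, n = 3 each).

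The 2 PYHIN genes were low in both lines. Ifi204 had 2.58, 3.26 and 3.54 CPM in LM2 and 2.20, 2.78 and 2.80 CPM in Parental, overlapping ranges with a log2 fold change of 0.27 ± 0.17. Ifi203 had 16, 27 and 27 counts in LM2 and 11, 15 and 19 counts in Parental, with a log2 fold change of 0.82 ± 0.37 at this low depth. Both share sequence with neighbours of the family: 34.6% of Ifi204's 31-base words occur in other genes, chiefly Ifi211 (18.9%), and 21.9% of Ifi203's, chiefly Ifi203-ps (15.9%). Samd9l was lower in LM2, with 20.5, 23.8 and 28.3 CPM in LM2 and 39.8, 42.4 and 38.6 CPM in Parental. Its log2 fold change was -0.73 ± 0.12 (1.66-fold lower in LM2), and the lines did not overlap. A single transcript, Samd9l-201, held 99.9% of its counts in LM2.

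By the threshold of an adjusted p below 0.05 with edgeR, 6 of the 10 genes were called higher in LM2, against 31.4% of all tested genes, and 1 was called lower, against 31.1%. The 3 that did not pass were Ifi27, Ifi203 and Ifi204. Libraries of the lines did not overlap for 6 genes higher in LM2 and 2 genes lower in LM2, Samd9l and Ifi27, against 33.4% and 33.6% of all tested genes. The genes were chosen on this contrast, so nothing is read from these counts. The median log2 fold change was 0.95 over the 10 genes and -0.0037 over all tested genes.

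**Figure D3:**
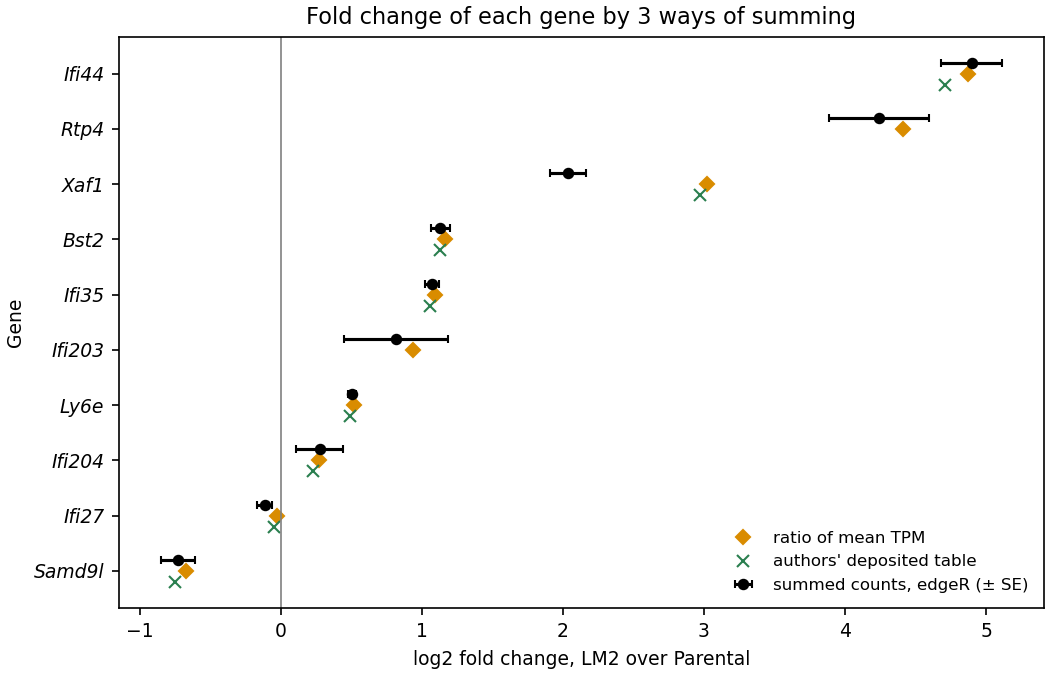
Log2 fold change of each of the 10 genes, LM2 over Parental, from summed counts with its standard error (circles), as a ratio of mean TPM (diamonds), and in the authors' deposited table (crosses, 8 genes). The count-based values run from 4.90 for Ifi44 to -0.73 for Samd9l, and Xaf1 is the gene whose 3 values lie apart, at 2.03 by counts, 3.02 by TPM and 2.97 in the authors' deposited table.

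Most of the 10 genes were carried by 1 main transcript. Bst2-201 held 99.8%, Ifi44-201 97.8% and Ifi35-201 91.2% of their gene's counts in LM2. The main Rtp4 transcript held 81.9% in LM2 and 53.5% of the few counts in Parental, and that of Ifi204 held 83.5% in LM2 and 78.4% in Parental. By rank of log2 fold change from the top of 13247 genes, Rtp4 stood at 108, Xaf1 at 394, Bst2 at 774, Ifi35 at 819 and Ly6e at 1911. Samd9l stood at 578 from the bottom. The genes are spread over the genome: Ifi203 and Ifi204 lie on chromosome 1, Ifi44 on 3, Samd9l on 6, Bst2 on 8, Ifi35 and Xaf1 on 11, Ifi27 on 12, Ly6e on 15 and Rtp4 on 16.

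The authors' deposited table lists log2 fold changes for 8 of the 10 genes, without Ifi203 and Rtp4. For 7 of the 8 the value in the authors' deposited table lay close to the count-based one, such as 4.71 for Ifi44, 1.13 for Bst2 and -0.75 for Samd9l. For Xaf1 it was 2.97, near the length-allowed value above. With lengths allowed for, other genes lay close to the value in the authors' deposited table too. Ifi27 had -0.05 in that table, against -0.06 with lengths and -0.12 by counts. Ifi204 had 0.23, against 0.24 with lengths and 0.27 by counts. Samd9l, at -0.71 with lengths, was nearer by counts. Neither the log base nor the direction is written in that table, and both were read from its closeness to the values computed here.

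Levels per length put Ly6e first in both lines and Bst2 second. Summed TPM of the 10 genes was 1565 ± 95.1 in LM2 and 968 ± 9.43 in Parental (SD, n = 3 each), a direction that the choice of genes largely fixes. Ly6e made up 62.0% of that sum in LM2 and 69.9% in Parental, and Bst2 27.0% in LM2 and 19.5% in Parental. In LM2 the order continued with Ifi35, Ifi27 and Xaf1, followed by Rtp4, Ifi44 and Samd9l, whose neighbours in the order overlapped, then Ifi204 and Ifi203. In Parental, Ifi27 stood above Ifi35, Samd9l followed, Xaf1 and Ifi204 overlapped, and Rtp4 lay above Ifi44, which overlapped with Ifi203. Xaf1 thus averaged 23.1 ± 4.63 TPM in LM2 and 2.84 ± 0.712 TPM in Parental, whereas Samd9l averaged 7.26 ± 1.44 TPM in LM2 and 11.6 ± 0.407 TPM in Parental.

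Libraries of LM2 differed among themselves in a repeated order. LM2 replicate 1 was the lowest of the 3 LM2 libraries for 9 of the 10 genes, against 35.0% of all tested genes, and LM2 replicate 3 the highest for 8, against 33.2%. Both held for 8 of the 10, against 18.4% of all tested genes. In Parental, replicate 1 lowest and replicate 3 highest held for 3 of the 10, against 15.5%. Replicate numbers do not pair the lines, so this does not show whether Parental had an order of its own. Parental replicate 2 was the lowest Parental library for 0 of the 10, against 30.9% of all tested genes. Parental replicates 1 and 3 were lowest for 5 each, against 32.1% and 37.0%. Samd9l followed the same order in LM2 as the genes higher in LM2, though it was lower in LM2 than in Parental. Ifi27 was lowest in LM2 replicate 3. The spread across LM2 libraries, as SD of log2 CPM, was 0.127 for Bst2 and 0.234 for Samd9l. It was above that of 99.4% and 99.0% of the 500 genes of nearest level, whereas in Parental these SDs were 0.022 and 0.070, above 36.6% and 80.0% of such genes. For the other 8 genes the share in LM2 ran from 36.6% for Ifi27 and 47.8% for Ifi35 to 90% for Xaf1, with Ifi203 at 60.0% and Ifi204 at 70.0%. In Parental, Rtp4 had the highest share of the 10, at 97.0%. No batch is given in the labels, and what sets the LM2 libraries apart was not tested.

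**Figure D4:**
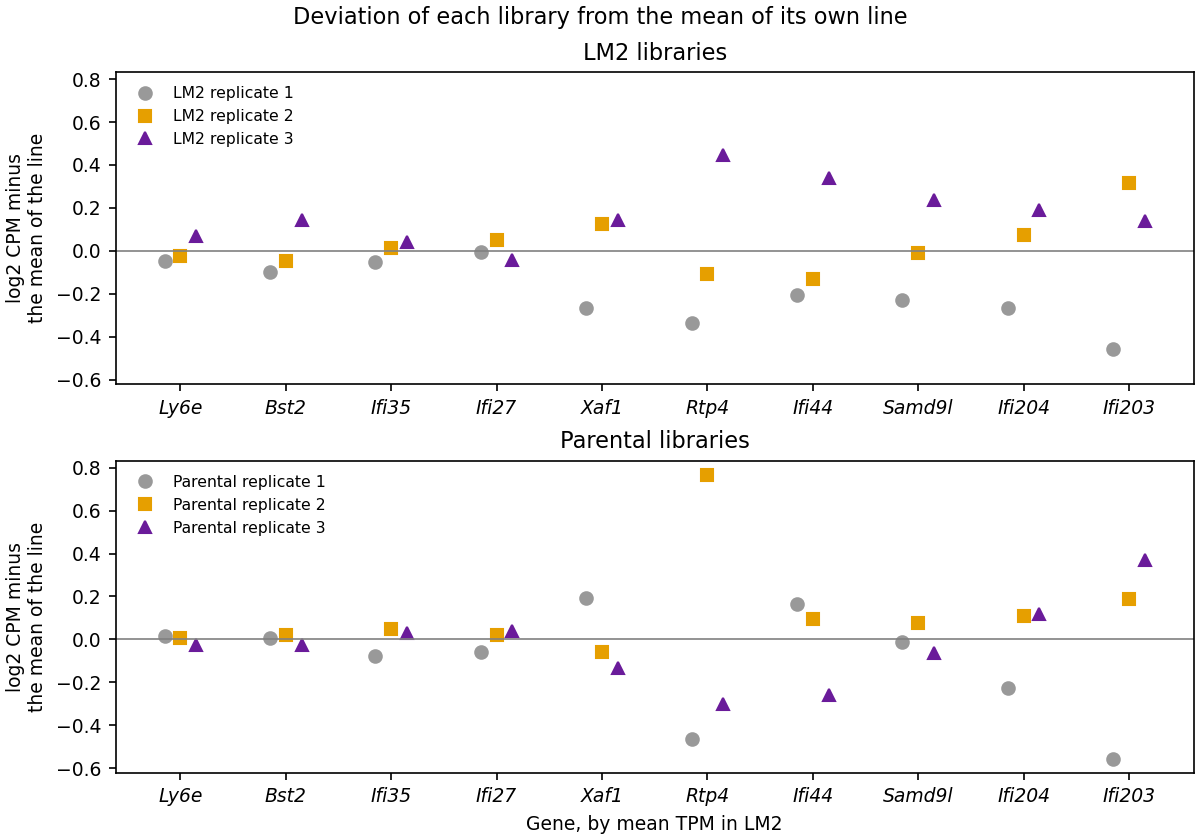
Deviation of log2 CPM of each library from the mean of its own line, for the 10 genes, LM2 above and Parental below. In LM2, replicate 1 was lowest for 9 genes and replicate 3 highest for 8, while in Parental replicate 1 was highest for 3 and lowest for 5.

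Profiles were compared by Euclidean distance over the 6 libraries. Log2 CPM was used after each gene's own Parental mean was subtracted, so levels were not compared. Genes near by this distance therefore largely share the log2 fold change on which Ifi44 and Samd9l were chosen. Out of 9903 candidates, tested genes that reached 5 CPM in either line, the 5 nearest to Ifi44 were Oasl2 (distance 0.556), Afp (0.588), Fam83a (0.595), Slc4a5 (0.828) and Fmod (1.03). Of these, Oasl2, an interferon-induced relative of the oligoadenylate synthetases, had 18.0, 22.4 and 30.3 CPM in LM2 and 1.05, 1.13 and 0.595 CPM in Parental, and like Ifi44 was highest in LM2 replicate 3 and lowest in LM2 replicate 1. Afp, alpha-fetoprotein, was flat within LM2 at 31.2, 28.3 and 30.7 CPM, against 0.967, 0.992 and 1.07 CPM in Parental. The genes nearest to Samd9l were Zfp953 (0.198), Fgfbp3 (0.219), Psen2 (0.228), Tbc1d8b (0.232) and Asl (0.240), none of which is on the interferon lists. Their log2 fold changes ran from -0.82 for Zfp953 to -0.68 for Fgfbp3. On the list of interferon-stimulated genes, those called lower were Ifi30 (-0.51) and Ifit2 (-0.18). Nothing is read from the absence of listed genes here.

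The genes around Bst2 and Samd9l were compared on the annotation's order, without coordinates. Of the other tested genes on Bst2's chromosome, 8, 64.6% were called lower in LM2 and 13.7% higher, with a median log2 fold change of -0.31. Bst2 was higher in LM2 there, and of its 6 nearest tested neighbours only Slc27a1, a fatty acid transporter, was called higher (log2 fold change 0.23). Another 3, Gtpbp3, Pgls and Plvap, were called lower, but Plvap did not pass with DESeq2 (adjusted p = 0.0625). On chromosome 6, home of Samd9l, 49.4% were called lower and 19.3% higher, median -0.18. No tested gene came before Samd9l in the annotation's order on this chromosome, so its 3 nearest tested genes all came after it. These were Vps50, with 47.9 CPM in LM2 and 66.8 CPM in Parental, Bet1, with 24.4 CPM in LM2 and 31.3 CPM in Parental, and Gng11, with 4.20 CPM in LM2 and 2.17 CPM in Parental.

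Other genes of the interferon pathway, listed by their role, were counted beside the 10. No ligand passed the filter: the 21 type I, II and III interferon genes summed to 5 counts over the LM2 libraries and 3 over Parental, and 15 were at 0 in every library. Of 5 tested receptor genes, 3 rose and 2 fell. Ifnar1 had 59.2 ± 1.04 CPM in LM2 and 49.5 ± 0.67 CPM in Parental (adjusted p = 9.8e-07), and Ifngr1 had 19.7 ± 0.715 CPM in LM2 and 28.3 ± 0.561 CPM in Parental (adjusted p = 9.75e-09). Of the kinases, Jak1 and Jak2 rose and Tyk2 fell, Jak1 at 362 ± 3.6 CPM in LM2 and 246 ± 5.9 CPM in Parental.

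Of 10 tested transcription factor genes of the pathway, 7 rose, 2 fell and Irf2 did not pass. Irf7, an inducible factor that amplifies the type I response, had 7.67, 7.92 and 12.1 CPM in LM2 and 0.813, 1.32 and 0.892 CPM in Parental (log2 fold change 3.21 ± 0.25, adjusted p = 2.42e-06). Irf9, a DNA-binding factor of the type I response, had a log2 fold change of 1.17 ± 0.13 (adjusted p = 0.00017). Irf5 fell, at 0.719 CPM in LM2 and 1.54 CPM in Parental, and Irf3 fell by 0.16 on the log2 scale (adjusted p = 0.00157, and 0.111 when transcript lengths were allowed for). Of 8 tested feedback genes, 5 rose, 1 fell and 2 did not pass. Usp18, which removes ISG15 from proteins and restrains the receptor, had 6.37, 7.68 and 11.0 CPM in LM2 and 0.593, 0.799 and 0.644 CPM in Parental (12.4-fold, adjusted p = 1.77e-08). Socs1, another inhibitor, did not pass at 12.9 CPM in LM2 and 12.7 CPM in Parental. Its log2 fold change was 0.02 by counts but -0.62 in the authors' deposited table. For Irf3 that table gives -0.53, a larger fall than by counts. Across all 26 tested pathway genes, 17 were called higher and 6 lower, against 31.4% and 31.1% of all tested genes. In either direction, 88.5% were called, against 62.4% of all tested genes. The pathway list was drawn up with results of these lines known, so its counts are a description.

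Of 50 further interferon-stimulated genes, 48 were tested: 42 rose, 2 fell and 4 did not pass, against 31.4% of all tested genes called higher and 31.1% called lower. The median log2 fold change was 1.17. This list was drawn up with results of these lines known, so its count is a description. By summed counts, Oasl2, Oas2, Oas1g and Isg15 rose most among those of at least 1 CPM, with 25.4-fold, 15.5-fold, 10.1-fold and 9.59-fold. The size for Oas2 depended on the measure: its mean TPM was 2.73 in LM2 and 0.372 in Parental. Its log2 fold change was 3.95 by counts and 2.95 in the authors' deposited table, where it lay below Oas1g (3.27) and Isg15 (3.2). Ifi30, the lysosomal thiol reductase, fell, at 82.0 ± 1.99 CPM in LM2 and 117 ± 0.778 CPM in Parental (adjusted p = 1.21e-12), and Ifit2 fell by 0.18 on the log2 scale (adjusted p = 0.018). Ifit2 did not pass with DESeq2 (adjusted p = 0.0714), without LM2 replicate 1 (0.0809) or without Parental replicate 3 (0.109). Mx1 and Herc6 did not pass, but Herc6 passed as lower without LM2 replicate 3 (log2 fold change -0.25, adjusted p = 0.00892). The log2 fold change of Samd9l, -0.73, lay below the -0.51 of Ifi30 and the -0.18 of Ifit2.

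**Figure D5:**
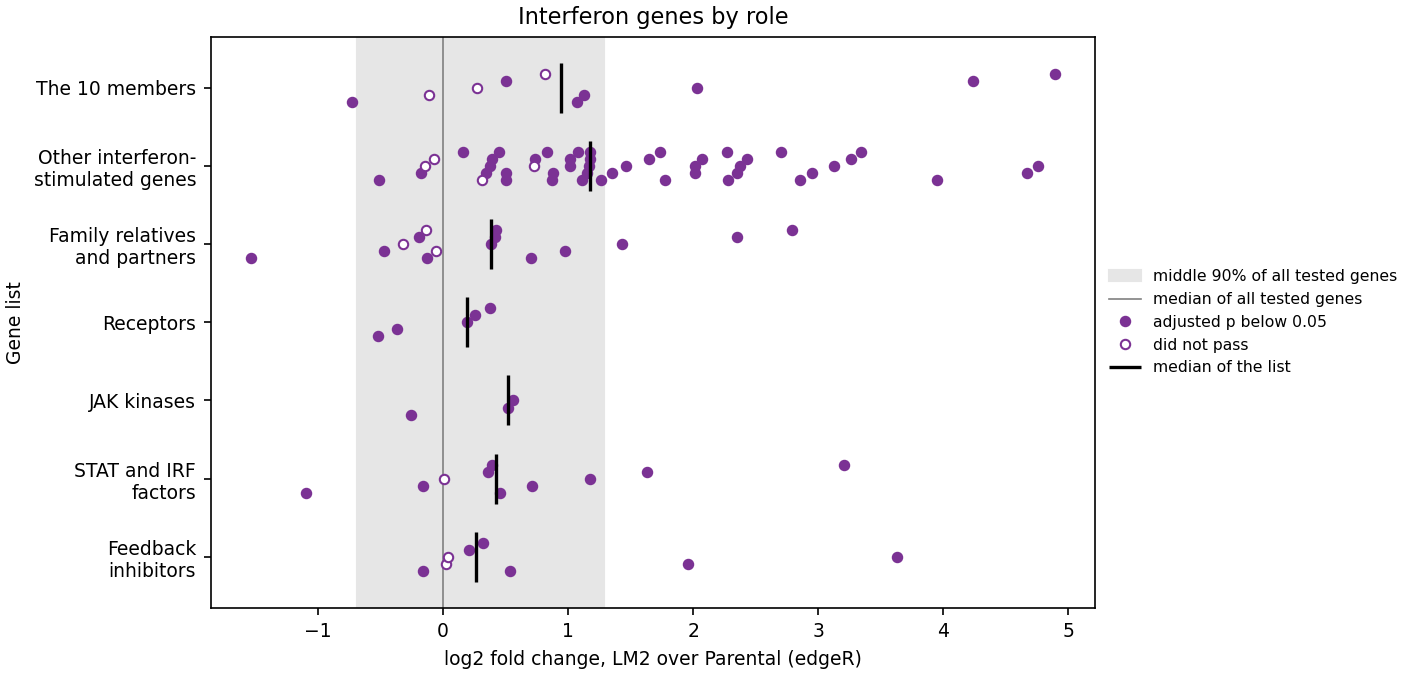
Log2 fold change of the 10 genes and of interferon genes grouped by role, LM2 over Parental, with filled points for an adjusted p below 0.05, black bars for list medians and a band for the middle 90% of all tested genes. List medians were 0.95 for the 10 genes and 1.17 for the 48 further interferon-stimulated genes.

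Close relatives and partners of the 10 genes were mixed. Of 15 tested, 8 rose, 4 fell and 3 did not pass. Over all tested genes, 31.4% were called higher and 31.1% lower, so the number that fell was near the background. In the PYHIN family, Ifi213 had 10.7, 10.3 and 14.1 CPM in LM2 and 2.37, 2.48 and 2.06 CPM in Parental (log2 fold change 2.35, adjusted p = 1.4e-11), whereas Ifi209 had 0.724, 0.801 and 0.838 CPM in LM2 and 1.85, 2.78 and 2.28 CPM in Parental (log2 fold change -1.54, adjusted p = 6.27e-06). Members of this family share sequence with each other, so these levels depend on how reads were divided. Ifi27l2a, a relative of Ifi27, rose 2.70-fold, to 2.73 CPM in LM2 against 1.02 CPM in Parental. Ly6a, Ly6c1 and Lynx1, relatives of Ly6e, all rose, Ly6a at 22.9 CPM in LM2 and 17.1 CPM in Parental. Tbk1, listed as a partner of Ifi204, was called lower, at 61.7, 60.4 and 60.9 CPM in LM2 and 80.4, 86.4 and 87.9 CPM in Parental. Tmem173, also listed as a partner of Ifi204, did not pass, at 38.5 CPM in LM2 and 40.2 CPM in Parental. Nmi, the partner of Ifi35, had 16.5 ± 2.96 CPM in LM2 and 12.7 ± 0.593 CPM in Parental (adjusted p = 0.0346), and Xiap, the partner of Xaf1, had 37.7 ± 0.62 CPM in LM2 and 41.2 ± 1.15 CPM in Parental (adjusted p = 0.0102). Neither call was stable: Nmi did not pass without LM2 replicate 2 (adjusted p = 0.0692) or without any 1 of the Parental replicates (0.0719 to 0.112), and Xiap did not pass without Parental replicate 2 (0.0549) or with transcript lengths allowed for (0.704).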

How the data were processed

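RNA from cultured EO771 lines was sequenced after mRNA library preparation, 3 libraries a line. The authors deposited estimated counts and TPM per transcript for each library, using kallisto 0.46.2 and GRCm39 (FastQC, MultiQC and edgeR 3.32.1 are named too), per the submitters' processing notes. They also deposited a table of log2 fold changes per gene. How strand was treated is not given in the sources used here; antisense or overlapping genes may share reads. The deposited lengths, in bases, were used only for the length alternative.

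Transcripts were matched by Ensembl identifier to genes of GENCODE release M21, on GRCm38, which gave names, chromosomes and gene order only: 116408 of 117486 (99.1%) matched, and the rest held 0.426% to 0.448% of a library's counts and were left out. Estimated counts were added up by gene, then rounded. With edgeR 4.0.16 in R 4.3.3, genes passing filterByExpr were scaled by TMM and tested by its robust quasi-likelihood method (LM2 over Parental) with Benjamini-Hochberg adjustment at 0.05. CPM are after TMM scaling; deposited TPM were summed per gene to compare levels between genes. The tests were checked on simulated counts. Promoter windows came from the RefSeq table of GRCm38.p6, and shares of 31-base words from the reference transcripts.

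The 10 genes and all lists were chosen with earlier results of these data known. Named by rule were the 10 genes, up to 4 called genes each way per list role reaching 1 CPM in either line, up to 2 abundant ones that did not pass, the 5 nearest profiles, and neighbours of Bst2 and Samd9l; Gm and Rik genes were passed over. Some genes of these roles are given as counts only.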

Additional observations from a re-analysis of the deposited data

How the results depend on the processing

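The 10 genes kept their directions under the alternatives that gave a value: DESeq2 1.42.0, its size factors, limma voom, other low-count filters, transcript lengths, a replicate block and leaving out each library. Ifi203 did not reach the filter of 1 CPM in 3 libraries and has no value there. The log2 fold change ranged from 4.70 to 4.99 for Ifi44, 3.98 to 4.71 for Rtp4 and -0.87 to -0.63 for Samd9l. Sizes moved for Xaf1, up to 3.02, and Ifi27, to -0.03, both as ratios of TPM, and the low genes Ifi204 (0.16 to 0.39) and Ifi203 (0.56 to 1.06) had wide ranges. Genes called lower among the 10 numbered 2 without a low-count filter, where Ifi27 passed, and 1 to 2 when a library was left out; those called higher numbered 6 to 7, Ifi203 passing without LM2 replicate 1. Of the 48 interferon-stimulated genes, 1 fell with DESeq2, and 1 to 3 when a library was left out. Replicate numbers did not pair the libraries (correlations of -0.0766, 0.0682 and 0.0207 for equal numbers), and not every library correlated best with its own number. With the number as a block, 4149 genes were called higher and 4101 lower, against 4156 and 4116 without it. Depth limits Ifi203 and the Parental values of Ifi44 and Rtp4, each under 30 counts a library.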

Other observations

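The order of the LM2 libraries seen for the 10 genes was shared by the 48 further interferon-stimulated genes. LM2 replicate 3 was the highest LM2 library for 42 of them and LM2 replicate 1 the lowest for 37. Both held for 33, or 68.8%, against 18.4% of all tested genes. Relative to the Parental mean, the median log2 level of these genes was 1.05, 1.20 and 1.42 in LM2 replicates 1, 2 and 3, and lay between -0.03 and 0.03 in the Parental libraries. The mitochondrial share was 1.28%, 1.24% and 1.43% in the same LM2 libraries. What sets these libraries apart was not tested.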
